A study of Mus musculus with 9 samples.

Results

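The comparison described here set mouse embryonic stem cells given CK666 during exit from self-renewal against cells leaving self-renewal without the drug. It was made over 6 of the series' 9 libraries, chosen by their labels: 3 labelled CK666 72h -LIF2i and 3 labelled Control 72h -LIF2i. All came from the E14 line, which is kept undifferentiated by LIF2i, a mix of the cytokine LIF with the MEK inhibitor PD0325901 and the GSK3β inhibitor CHIR99021. Both groups were washed out of LIF2i and held for 72 h in serum medium that was renewed every day. The CK666 group received 80 µM of the compound from a DMSO stock at each renewal. The labels call the controls untreated and mention no solvent for them, so the drug and its solvent cannot be told apart here. The design text describes the replicates as biological and paired, and the replicate number was used as the pair.

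CK666 is a small molecule that holds the Arp2/3 complex in an inactive shape. Arp2/3 starts new actin filaments as branches on the sides of existing ones, and so builds the sheet-like networks of lamellipodia and cell cortex. The state of actin is also read by gene regulation: unpolymerized actin binds the MRTF coactivators and keeps them away from the transcription factor SRF, whose targets include actin genes themselves. When LIF2i is removed, mouse embryonic stem cells switch off naive pluripotency factors and pass through a formative state, in which ERK signalling is active and de novo DNA methyltransferases rise.

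The 6 libraries held 17067924 to 22550952 estimated counts each, so that 3 counts, taken here as the detection floor, equal 0.133 to 0.176 CPM, the counts of a gene scaled to a fixed library total. All values of single genes below are CPM after TMM scaling, and are compared within a gene, not between genes. Over all genes, the first principal component (51.3% of the variance) set replicate 1 of both groups apart from replicates 2 and 3, and the second (23.9%) separated the CK666 from the control libraries. The labelled stem cell type was checked on 12 general pluripotency genes, which summed to 2780 to 3450 TPM in the controls and 2350 to 3300 TPM with CK666, with 0 of the 12 at or under 3 counts in all 6 libraries. Of these 12 genes, 0 were raised and 1, Tdgf1, was lowered; 11 of 12 fitted changes were below 0, some barely, with a median log2 fold change of -0.22. That median was 0.15, -0.27 and -0.36 in pairs 1, 2 and 3, and 4 of the 12 genes moved in 1 direction in 3 of 3 pairs. The exception was Pou5f1, the core pluripotency factor Oct4, at 1094, 1029 and 1203 CPM in the controls and 1175, 1277 and 1113 CPM with CK666. The 13 markers of fibroblasts, blood, endothelium and liver, of which 7 were tested, summed to 31.1 to 53.3 TPM, a level scaled for transcript length and depth, in the controls and 28.9 to 54.3 TPM with CK666, with Hbb-bt and Lum at or under 3 counts in all 6. Of the 7 tested, 2 had fitted changes above 0 and 5 below. Pecam1, an adhesion protein listed for endothelium, was the 1 called. It measured 12.2, 16.1 and 10.8 CPM in the controls and 22.5, 83.2 and 22.5 CPM with CK666, groups that do not overlap. The log2 change was 1.45 ± 0.31 (edgeR adjusted p = 0.038, and 0.065 and 0.10 without replicate 2 and 3). Cdh5, also listed for endothelium, had 0 to 6 estimated counts in each library. Alb, the liver's albumin gene, had 280 estimated counts in control replicate 1 and 0 or 1 in each other library. Which cells these values came from, and whether other cell types had a part in the results below, was not tested. In bulk RNA, fewer cells of a type and less RNA per cell cannot be told apart.

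Between the CK666 and control libraries, 1367 of 14133 tested genes (9.67%) differed. The test was edgeR's quasi-likelihood test with the replicate number as a block and a Benjamini-Hochberg adjusted p under 0.05. Of these, 666 were raised (4.71% of all tested) and 701 were lowered (4.96%). Most changes were moderate: the median size among called genes was 1.61-fold, and 348 genes changed at least 2-fold. Each of the 1367 moved in 1 direction in 3 of 3 pairs, as did 49.3% of all tested genes, and 838 had control and CK666 values that did not overlap, against 16.5% of all tested genes. The calls rest on the pairing: without the block edgeR called 0 genes, with 1404 at an unadjusted p under 0.05. They also rest on which pairs are used, since 1930, 169 and 245 genes (13.5%, 1.18% and 1.7% of those tested) were called without replicate 1, 2 and 3 in turn.

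**Figure D1:**
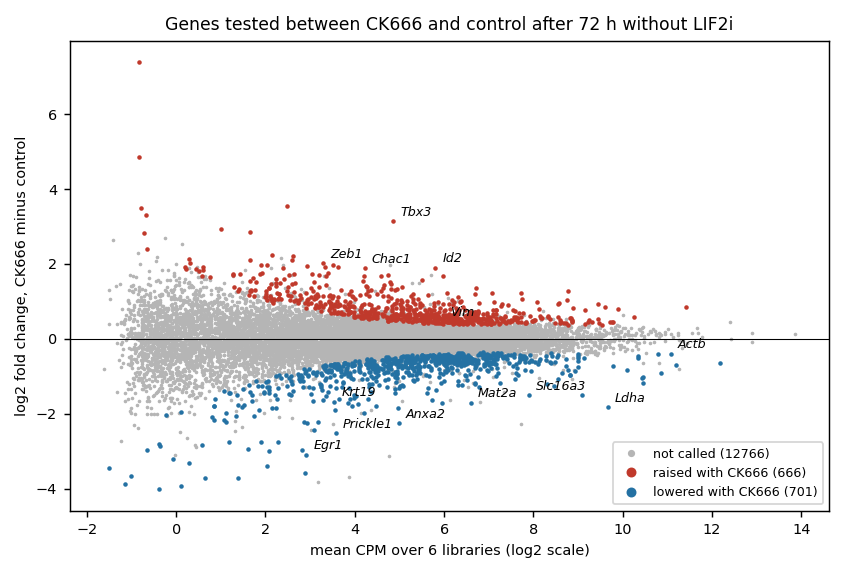
Log2 fold change (CK666 minus control, vertical axis) against the mean CPM over the 6 libraries (log2 scale, horizontal axis) for the 14133 tested genes, each a point. The 666 raised genes are red, the 701 lowered genes blue and the others grey.

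By the choice rule for single genes (largest change among called protein-coding genes of moderate or high level), the most raised gene was Tbx3, a T-box factor of the naive pluripotency network. It measured 7.54, 3.96 and 5.51 CPM in the controls and 32.8, 76.7 and 47.6 CPM with CK666, groups that do not overlap. The log2 fold change was 3.13 ± 0.46 (SE from the edgeR test, n = 3 pairs, edgeR adjusted p = 0.028). The adjusted p was 0.18 without replicate 3 and 0.079 once transcript length was offset. Next came Zeb1, a repressor of epithelial genes, Nupr1, a stress-induced chromatin protein, and Adgra2, an adhesion G protein-coupled receptor that works with WNT7, at log2 changes of 2.03, 1.97 and 1.92. The other 11 of the 15 most raised were Camk2n1, Id2, Chac1, Gfra1, Epha4, Zmym3, Ebf1, Rnf165, Slc2a4, Adgre5 and Id1, at log2 changes of 1.66 to 1.91.

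The most lowered gene by the same rule was Prickle1, a cytoplasmic component of planar cell polarity, at 26.3, 20.3 and 14.3 CPM in the controls and 3.47, 2.35 and 4.81 CPM with CK666. Its log2 fold change was -2.52 ± 0.30 (edgeR adjusted p = 0.0039). Dok2, a docking protein of receptor tyrosine kinases, fell by 2.43, Anxa2, an annexin that links membranes to cortical actin, by 2.25, and Fgfbp1, which releases FGFs from the matrix, by 2.23 on the log2 scale. Dok2 was not called without replicate 2 or 3 (edgeR adjusted p = 0.17 and 0.088), nor once transcript length was offset (0.19). The other lowered genes of this set were Sfn, Lpar6, Slc27a2, Ldha, Fastkd5, Ndrg1, Sema3c, Parp9, Mat2a, Sgk1 and Krt19, at log2 changes of -1.99 to -1.68. Fastkd5 shares most of its exonic bases with another annotated gene, so its value is uncertain. Mat2a, which makes the methyl donor S-adenosylmethionine, and Slc16a3, the lactate exporter MCT4, had the smallest adjusted p of all genes (both 0.00045). Mat2a measured 205, 102 and 138 CPM in the controls and 58.5, 37.0 and 38.1 CPM with CK666.

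**Figure D2:**
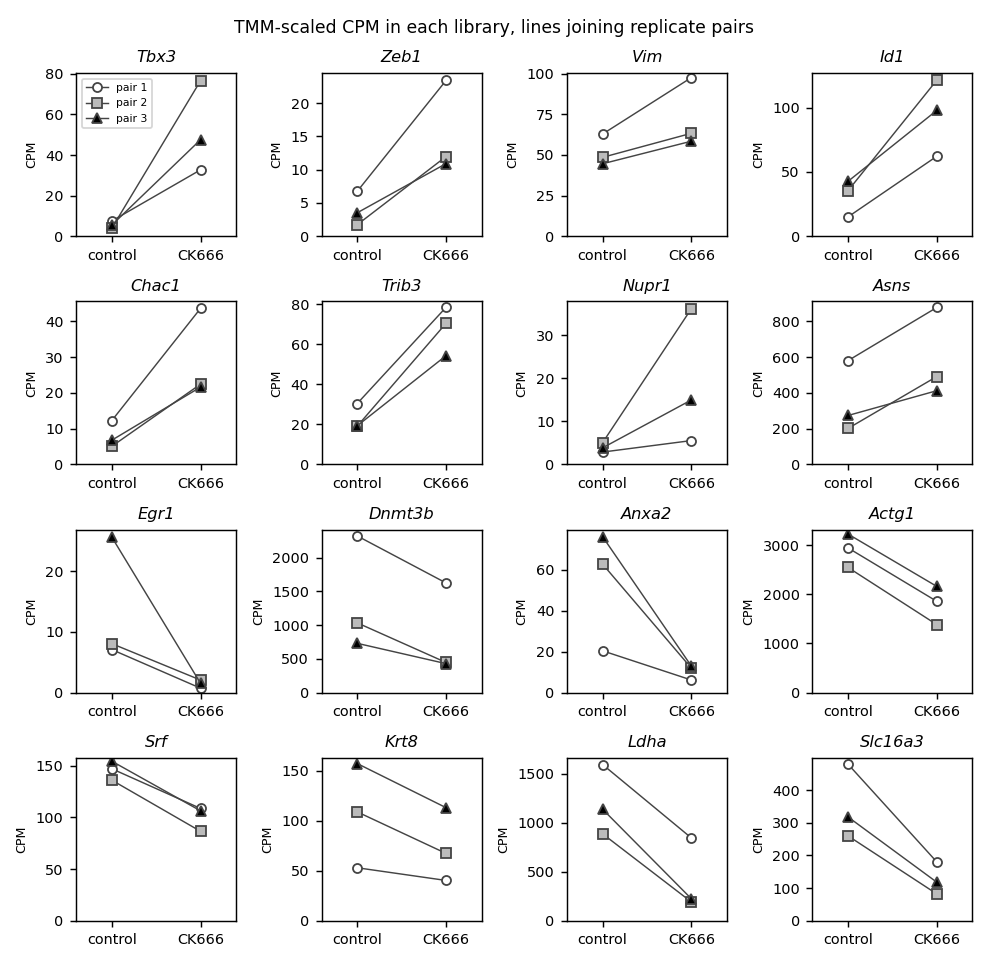
CPM after TMM scaling (vertical axes, from 0) of 16 genes in the control and CK666 libraries; each line joins the libraries of 1 replicate pair. Every line runs upward for Tbx3 to Asns and downward for Egr1 to Slc16a3, while the level of a gene such as Asns or Krt8 differs between pairs.

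The genes were also read through 54 lists by function. Of 766 listed genes tested, 180 were called, 65 raised and 115 lowered, so that 1187 called genes stand outside every list. Of all tested genes, 9.67% were called. The lists were chosen with earlier results of these data known, so a larger share of calls within them is partly built in. The median log2 fold change of all tested genes was 0.00. Counts of raised and lowered members below stand against 4.71% and 4.96% of all tested genes. Without replicate 1, 2 and 3 in turn, these backgrounds were 6.69%, 0.44% and 0.798% raised, and 6.83%, 0.74% and 0.902% lowered.

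**Figure D3:**
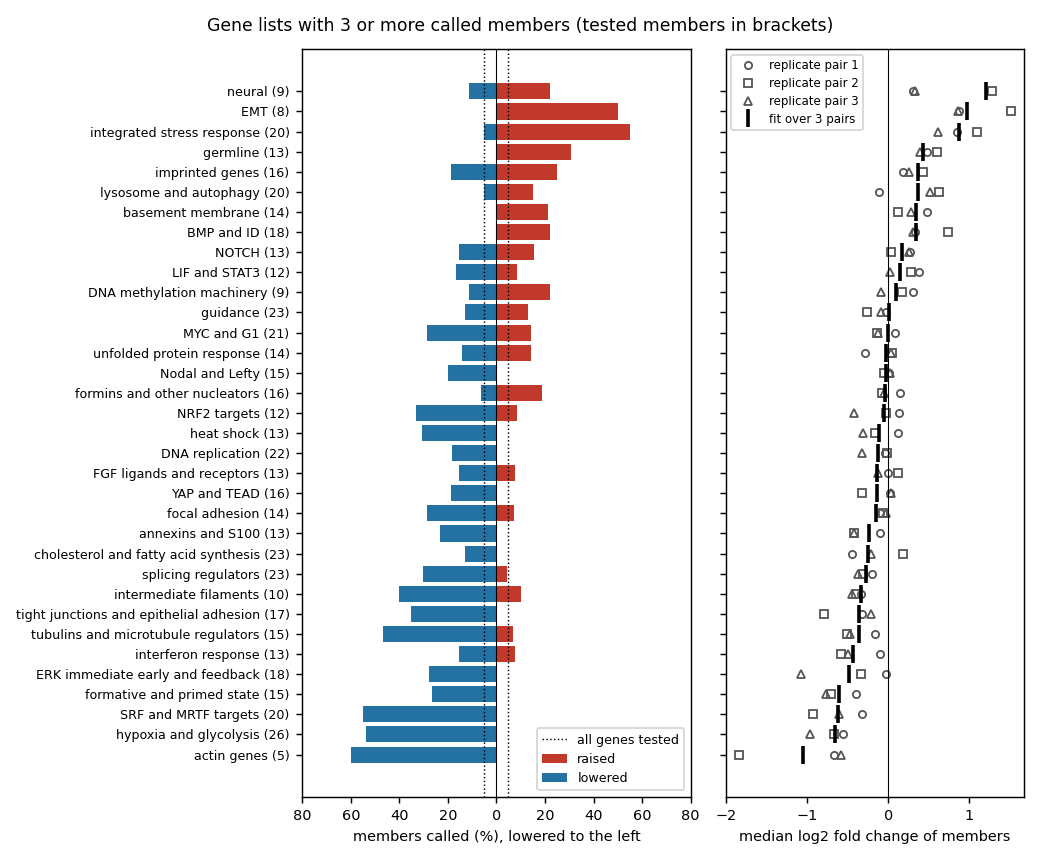
Left, the percentage of tested members raised (red) and lowered (blue) in each list with 3 or more called members, with dotted lines at the 4.71% and 4.96% of all tested genes. Right, the median log2 fold change of the members in each replicate pair and in the fit over 3 pairs.

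Most genes encoding the drug's target were not called. The Arp2/3 complex has actin-related subunits, Actr2 (Arp2) and Actr3 (Arp3), and further ARPC subunits that hold them together. Actr2 measured 473, 294 and 297 CPM in the controls and 488, 282 and 283 CPM with CK666, and Actr3 had a log2 fold change of -0.02 ± 0.10. Of 10 tested genes of the complex, 0 were raised and 2 were lowered: Arpc5 by 0.94 ± 0.12 (edgeR adjusted p = 0.0034) and Arpc4 by 0.55 ± 0.11 (adjusted p = 0.014) on the log2 scale. The median of the 10 was -0.03. Arpc4 was not called without replicate 2 or 3 (edgeR adjusted p = 0.073 and 0.13), which left 1 lowered gene in each of those fits. Among 17 activators and inhibitors of the complex, Wasf3, a WAVE-family activator, was raised (0.50 ± 0.10, edgeR adjusted p = 0.020, and 0.14 and 0.15 without replicate 2 and 3) and 0 were lowered.

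Other actin nucleators moved in both directions. Fhod3, a formin best known from heart muscle, rose from 30, 14.3 and 12.6 CPM to 62.6, 41.0 and 38.3 CPM, groups that do not overlap. The log2 fold change was 1.39 ± 0.15 (edgeR adjusted p = 0.0015). Cobl, a nucleator that makes unbranched filaments, rose by 1.52 ± 0.26, and the formin Inf2 by 0.44 ± 0.12 on the log2 scale. The formin Fhod1 fell by 0.45 ± 0.12, so 3 of 16 nucleators were raised and 1 lowered; without replicate 2 the calls were 1 raised and 0 lowered, and without replicate 3 they were 2 raised and 0 lowered.

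Several actin genes and SRF targets were lowered, 3 of 5 and 11 of 20 tested. Actg1, cytoplasmic gamma-actin, measured 2945, 2547 and 3227 CPM in the controls and 1857, 1383 and 2161 CPM with CK666, without overlap. Its log2 fold change was -0.71 ± 0.11 (edgeR adjusted p = 0.0053, and 0.13 without replicate 2). Actb, beta-actin, fell by 0.40 ± 0.10, and Actc1, cardiac actin, by 3.00 ± 0.42 from a low level. Without replicate 2, 0 of the 5 actin genes were called. Of 20 tested SRF and MRTF targets, 0 were raised and 11 were lowered, with a median of -0.62. In pairs 1, 2 and 3 that median was -0.32, -0.93 and -0.61. Srf itself, which is its own target, measured 147, 136 and 154 CPM in the controls and 109, 86.4 and 106 CPM with CK666. The smallest adjusted p among the lowered targets was that of Vcl, the adhesion protein vinculin, which fell from 208, 281 and 296 CPM to 127, 111 and 135 CPM (log2 change -1.06 ± 0.13, edgeR adjusted p = 0.0032). The tropomyosins Tpm1 and Tpm4, the calponins Cnn1 and Cnn2, Tagln, Tagln2, Zyx and the matricellular genes Ccn1 and Ccn2 made up the rest. Tagln shares most of its exonic bases with another gene and Vcl a smaller part, and these values carry that uncertainty. Without replicate 1, 2 and 3 in turn, 11, 3 and 4 of the targets were lowered, against 6.83%, 0.74% and 0.902% of all genes tested in those fits.

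Of 14 genes of nonmuscle myosin and its kinases, 1 was raised and 0 were lowered, with a median of -0.04 and 9 of 14 fitted values below 0, a share of calls near that of all genes. The raised gene was Myh9, the heavy chain of nonmuscle myosin IIA, which rose from 487, 517 and 502 CPM to 669, 630 and 755 CPM (log2 change 0.44 ± 0.11, edgeR adjusted p = 0.032); it was not called without replicate 2 or 3. Talin 2 (Tln2) was the 1 raised focal adhesion gene of 14, at 0.63 ± 0.11, and was not called without replicate 2 or 3. Vcl, Zyx, Parva and Bcar1 were the 4 lowered, of which 1 was called without replicate 2 and 1 without replicate 3.

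Some epithelial genes fell and some mesenchymal genes rose. Of 17 genes of tight junctions and epithelial adhesion, 0 were raised and 6 were lowered: the claudins Cldn6 and Cldn7, the splicing factor Esrp1, the polarity gene Crb3, and the desmosome genes Dsp and Pkp2. Without replicate 1, 2 and 3 in turn, 7, 2 and 4 were lowered. Esrp1, which sets epithelial splice forms, measured 71.5, 131 and 147 CPM in the controls and 30.2, 45.0 and 78.9 CPM with CK666, lower in each pair though the groups overlap. Its log2 fold change was -1.22 ± 0.14 (edgeR adjusted p = 0.0016). Cdh1, E-cadherin, was not called (-0.21 ± 0.10, adjusted p = 0.20), nor was Cdh2, N-cadherin (0.33 ± 0.19, adjusted p = 0.31).

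Of 8 genes of the epithelial to mesenchymal transition, 4 were raised and 0 were lowered, with a median of 0.97, and 4, 2 and 2 were raised without replicate 1, 2 and 3 in turn. Zeb1 measured 6.74, 1.74 and 3.53 CPM in the controls and 23.4, 11.97 and 10.9 CPM with CK666. Zeb2, its paralog, rose by 1.74 ± 0.35 on the log2 scale, though its adjusted p was 0.43 once transcript length was offset. Fn1, fibronectin, rose from 286, 291 and 274 CPM to 544, 648 and 550 CPM, a narrow spread on both sides (log2 change 1.03 ± 0.11, edgeR adjusted p = 0.0015). Vim, vimentin, rose by 0.47 ± 0.11. Among basement membrane genes, Nid1 (nidogen) and Col4a2 (a type IV collagen chain) were raised beside Fn1, 3 of 14 in all, with 1 raised without replicate 2 and 1 without replicate 3. Other lists did not rise. Of 9 fibrillar and other collagen genes 0 were called, with 2 fitted values above 0, 7 below and a median of -0.31. Of 5 caveola genes 0 were called, with 5 below 0 and a median of -0.40.

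Among intermediate filaments, 4 of 10 were lowered and 1 was raised, with 5, 2 and 2 lowered and 0 raised without replicate 1, 2 and 3 in turn. Krt8 and Krt19, which build simple-epithelial filaments, fell by 0.52 ± 0.11 and 1.68 ± 0.22, and nestin (Nes), an intermediate filament of progenitor cells, by 1.28 ± 0.14 on the log2 scale. Anxa2 fell from 20.4, 62.6 and 76.0 CPM to 6.13, 11.9 and 12.9 CPM, and its partner S100a10 by 0.85 ± 0.19. Of 13 annexin and S100 genes 3 were lowered, and 1 in each fit without replicate 2 or 3, where S100a10 was not called (edgeR adjusted p = 0.16 and 0.17). Of 15 tubulin and microtubule genes, 7 were lowered, all tubulins, and Map1b, a microtubule-associated protein, was the 1 raised. Tubb4b had the largest change among them, -0.98 ± 0.13 (edgeR adjusted p = 0.0039). Tubulin genes are similar in sequence, so that their estimated counts can be split between copies. Without replicate 1, 2 and 3 in turn, 8, 1 and 1 of the list were lowered, and Map1b was called only in the first of these fits.

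Genes of the integrated stress response rose in 11 of 20 tested members (4.71% of all tested genes were raised), with a median of 0.87 and medians of 0.84, 1.09 and 0.61 in pairs 1, 2 and 3. In this response the kinases that phosphorylate eIF2α slow translation in general and favour translation of ATF4, which then drives genes of amino acid supply. Atf4 messenger RNA measured 167, 155 and 189 CPM in the controls and 288, 256 and 216 CPM with CK666. The log2 change was 0.57 ± 0.13 (edgeR adjusted p = 0.028, and 0.065 and 0.24 without replicate 1 and 2).

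Several of its targets had larger fitted changes than Atf4, a difference that was not tested. Trib3, a pseudokinase induced by ATF4, rose from 30.4, 19.1 and 19.3 CPM to 78.4, 70.5 and 54.3 CPM (log2 change 1.58 ± 0.14, edgeR adjusted p = 0.00092). Chac1, which degrades glutathione, rose from 12.3, 5.06 and 6.78 CPM to 43.7, 22.5 and 21.6 CPM (1.88 ± 0.17, adjusted p = 0.00092). Neither gene's groups overlap.

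The amino acid genes included Asns (asparagine synthetase), at 0.82 ± 0.15, and Mthfd2 (mitochondrial folate metabolism), at 1.08 ± 0.14. Aldh18a1 (proline synthesis) stood at 0.92 ± 0.11. The transporter subunits Slc7a5 and Slc3a2, which together import large neutral amino acids, rose by 0.93 and 0.96, and Slc7a11, the cystine importer, by 1.18 from a low level. Nupr1 and Vldlr were the other raised members. Ddit4, an inhibitor of mTORC1, was the 1 lowered member (-0.58 ± 0.13, edgeR adjusted p = 0.023), and Ddit3, which encodes CHOP, was not called (1.71 ± 0.51, adjusted p = 0.16). Without replicate 1, 2 and 3 in turn, 10, 6 and 8 members were raised, against 6.69%, 0.44% and 0.798% of all genes tested in those fits. Of the endoplasmic reticulum chaperones, Hspa5 (BiP) fell from 906, 554 and 473 CPM to 397, 402 and 317 CPM. In the unfolded protein response, 2 of 14 genes were raised and 2 lowered. Without replicate 1, 2 and 3 in turn, 1, 0 and 0 were raised and 2, 0 and 1 lowered.

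Of 13 heat shock genes, 0 were raised and 4 were lowered, with 5, 1 and 1 lowered without replicate 1, 2 and 3 in turn. Hspa8, the constitutive HSP70, measured 2385, 1617 and 1488 CPM in the controls and 1328, 723 and 677 CPM with CK666 (log2 change -1.05 ± 0.11, edgeR adjusted p = 0.0015). Hsph1, Dnaja1 and Dnajb1, its co-chaperones, fell by 1.01, 0.83 and 0.62 on the log2 scale.

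Glycolysis and hypoxia genes were lowered in 14 of 26 tested members and raised in 0, with a median of -0.66 and medians of -0.56, -0.67 and -0.97 in pairs 1, 2 and 3. These genes cover glucose uptake, the glycolytic steps and lactate formation, and many are targets of the hypoxia-inducible factors. Slc2a1, the glucose transporter GLUT1, measured 918, 858 and 640 CPM in the controls and 295, 239 and 312 CPM with CK666 (log2 change -1.51 ± 0.15, edgeR adjusted p = 0.0016). The glycolytic enzymes Gpi1, Pfkl, Aldoa, Tpi1, Pgk1, Pgam1 and Pkm fell by 0.51 to 1.19 on the log2 scale. Ldha, which turns pyruvate into lactate, measured 1594, 887 and 1138 CPM in the controls and 844, 191 and 224 CPM with CK666, a smaller difference in pair 1 than in the others (-1.83 ± 0.34, adjusted p = 0.046).

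Slc16a3, outside the list and named after its values were seen, fell from 479, 260 and 318 CPM to 180, 81.9 and 118 CPM. Among hypoxia genes without a glycolytic step, Egln3, the oxygen-sensing prolyl hydroxylase PHD3, fell by 1.23 ± 0.13 and Ndufa4l2, a mitochondrial protein induced by HIF1, by 3.59 ± 0.29 on the log2 scale. Pdk1, which holds pyruvate back from mitochondria, fell by 0.87 ± 0.14, and Ankrd37 and Higd1a completed the 14. Without replicate 1, 2 and 3 in turn, 16, 5 and 5 members were lowered, against the same backgrounds as for the SRF targets. Of 25 nuclear genes of the respiratory chain 0 were called, with a median of 0.17, and of 30 ribosomal protein genes 0 were called, with a median of 0.13.

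**Figure D4:**
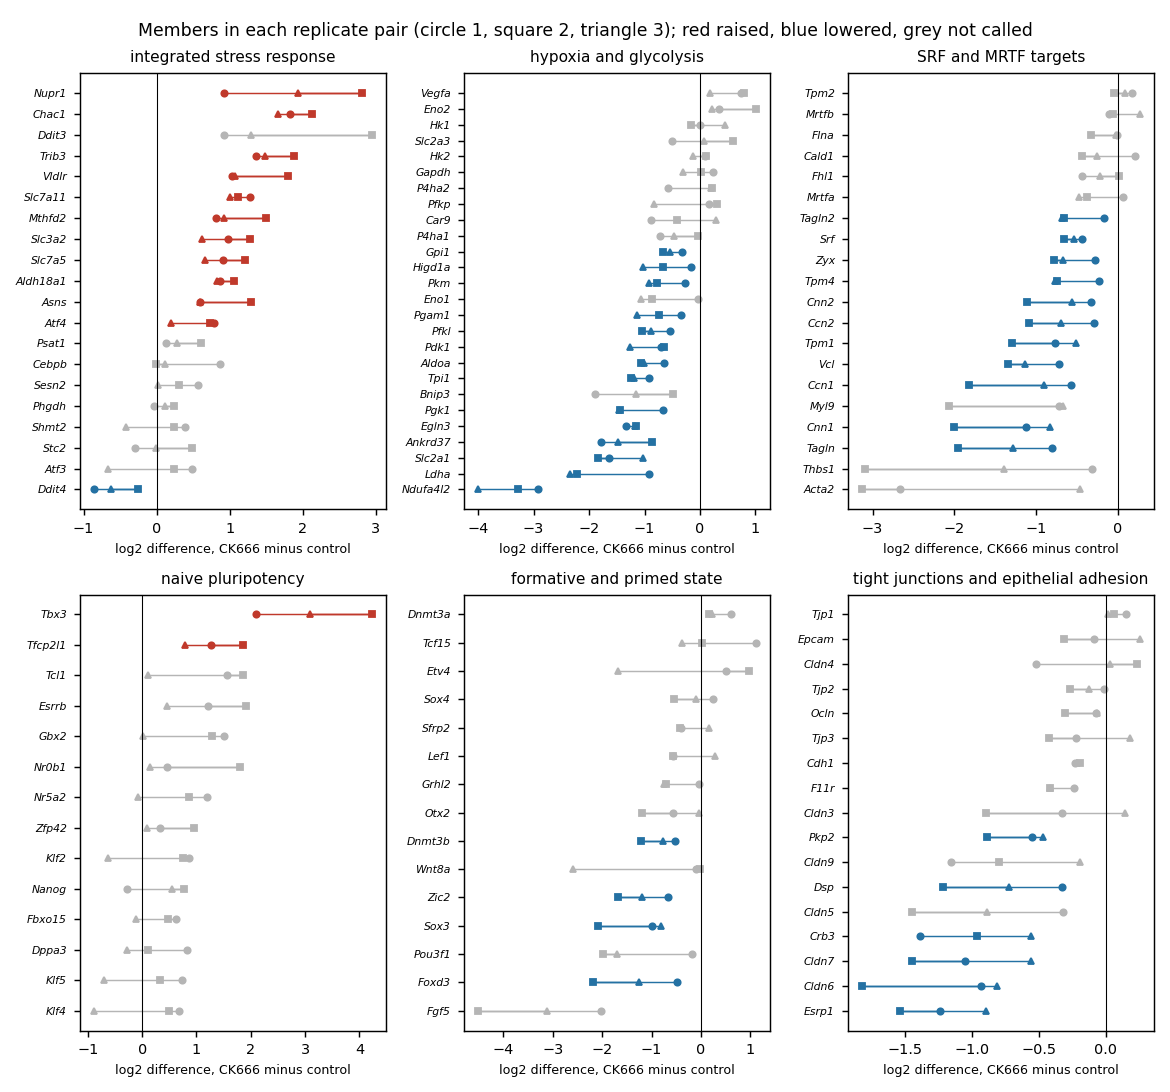
Log2 difference (CK666 minus control, horizontal axes) of every tested member of 6 lists in replicate pairs 1, 2 and 3 (circle, square, triangle). Red members were raised, blue members lowered and grey members not called; in the glycolysis list 0 members are red, and in the stress response list Ddit4 is the only blue one.

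The regions before the starts of these genes were searched for letters that the named factors are known to bind. Each search ran on both strands over the 250 bases before a start in RefSeq (GRCm38.p6), in 32851 promoters of 27025 genes, and a gene counts as a match where any of its promoters holds the letters, for members and for all genes alike. Both the motifs and the window were chosen with the gene results known, 4 motif forms were searched in 2 windows, and a match is a description of letters, not of binding. The lists hold many known targets of these factors, so more matches than over all genes can come from how the lists were made. Members that were not called were not searched, so the matches do not bear on the response to CK666. For the stress response, TGATGNAA (N any base), the shared core of sites for C/EBP and ATF4, occurred for 5 of 10 raised members with a RefSeq promoter and for 3.91% of all genes. In the 300-base window that adds 50 bases after the start it occurred for 6 of the 10 and for 4.51% of all genes.

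For the 13 lowered glycolysis and hypoxia members with a promoter, ACGTG or GCGTG, the core bound by hypoxia-inducible factors, occurred for 11 in both windows, but this short motif also occurred for 41.5% of all genes (46.7% in 300 bases). The narrower form ACGTG alone, tried after that result, occurred for 8 of 13 and for 18.5% of all genes (9 and 21.8% in 300 bases). For the lowered SRF and MRTF targets, the CArG box bound by SRF occurred for 3 of 9 in both windows, and for 1.62% of all genes (1.81% in 300 bases).

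The promoters shown are those of members whose values are given above, a pair for each motif, chosen because each holds a match. They read 5′ to 3′ on the gene's strand and end at the base before the start, with the matched letters in capitals. Chac1 lies at chr2:119350992-119351241 (+), Asns at chr6:7693210-7693459 (-), Pgk1 at chrX:106186850-106187099 (+), Egln3 at chr12:54203875-54204124 (-), Vcl at chr14:20929148-20929397 (+) and Srf at chr17:46556163-46556412 (-).
Chac1: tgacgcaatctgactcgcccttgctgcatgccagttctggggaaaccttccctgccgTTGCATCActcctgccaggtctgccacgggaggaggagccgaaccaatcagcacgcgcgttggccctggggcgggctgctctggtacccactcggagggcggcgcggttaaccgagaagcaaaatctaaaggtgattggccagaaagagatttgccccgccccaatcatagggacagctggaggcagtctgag
Asns: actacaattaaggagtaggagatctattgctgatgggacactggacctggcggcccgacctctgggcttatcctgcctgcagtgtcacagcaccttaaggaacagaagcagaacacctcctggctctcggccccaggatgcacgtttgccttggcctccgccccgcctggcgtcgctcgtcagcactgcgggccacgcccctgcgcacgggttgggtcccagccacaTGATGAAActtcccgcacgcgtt
Pgk1: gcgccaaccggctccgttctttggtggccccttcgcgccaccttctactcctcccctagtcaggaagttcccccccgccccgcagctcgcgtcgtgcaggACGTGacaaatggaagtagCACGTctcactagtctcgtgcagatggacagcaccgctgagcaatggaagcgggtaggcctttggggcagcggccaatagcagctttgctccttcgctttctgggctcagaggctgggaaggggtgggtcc
Egln3: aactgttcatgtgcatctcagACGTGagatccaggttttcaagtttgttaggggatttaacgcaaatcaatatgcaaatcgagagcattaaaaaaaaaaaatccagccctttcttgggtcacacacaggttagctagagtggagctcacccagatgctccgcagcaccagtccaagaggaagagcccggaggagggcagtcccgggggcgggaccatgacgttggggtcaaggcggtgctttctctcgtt
Vcl: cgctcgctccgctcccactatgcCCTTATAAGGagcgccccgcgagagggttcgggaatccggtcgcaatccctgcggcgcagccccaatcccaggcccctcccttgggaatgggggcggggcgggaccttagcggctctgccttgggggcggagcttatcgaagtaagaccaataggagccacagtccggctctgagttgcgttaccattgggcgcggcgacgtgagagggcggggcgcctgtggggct
Srf: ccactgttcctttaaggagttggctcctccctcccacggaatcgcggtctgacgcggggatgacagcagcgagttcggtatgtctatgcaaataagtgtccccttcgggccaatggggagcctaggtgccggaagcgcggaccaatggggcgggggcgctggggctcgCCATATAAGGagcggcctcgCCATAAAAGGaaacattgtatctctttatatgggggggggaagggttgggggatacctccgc

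Of 14 naive genes, 2 were raised (4.71% of all tested genes were) and 0 were lowered, with all 14 fitted values above 0 and a median of 0.58. Pair 3 carried less of this, with a median of 0.05 against 0.84 and 0.91 in pairs 1 and 2. Without replicate 1, 2 and 3 in turn, 3, 1 and 2 members were raised and the median was 0.59, 0.28 and 0.93. Beside Tbx3, Tfcp2l1, a factor downstream of LIF and GSK3β inhibition, rose from 12.4, 20.9 and 16.4 CPM to 29.95, 75.6 and 28.4 CPM (log2 change 1.32 ± 0.20, edgeR adjusted p = 0.0061, and 0.053 without replicate 2). Esrrb, an orphan nuclear receptor of the same network, measured 21.3, 34.7 and 35.5 CPM in the controls and 49.4, 131 and 48.5 CPM with CK666. Its groups do not overlap, but it missed the threshold (1.20 ± 0.28, adjusted p = 0.053). Nanog was not called (0.35 ± 0.20, adjusted p = 0.31).

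Of 15 formative genes tested, 0 were raised and 4 were lowered (4.96% of all tested genes were), with a median of -0.60. Without replicate 1, 2 and 3 in turn, 7, 3 and 1 were lowered. Dnmt3b, a de novo DNA methyltransferase, measured 2322, 1034 and 731 CPM in the controls and 1625, 447 and 429 CPM with CK666, lower in each pair. The log2 change was -0.83 ± 0.14 (edgeR adjusted p = 0.0088, and 0.12 and 0.065 without replicate 2 and 3). Dnmt3a, the other de novo methyltransferase, was not called, with values above its control in each pair, at 585, 285 and 214 CPM in the controls and 889, 320 and 251 CPM with CK666 (0.34 ± 0.12, adjusted p = 0.099). Sox3, Zic2 and Foxd3, transcription factors of the formative epiblast, fell by 1.27, 1.17 and 1.29 on the log2 scale.

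Fgf5, the usual marker of this state, measured 44.6, 61.7 and 39.0 CPM in the controls and 10.9, 2.58 and 4.42 CPM with CK666 without overlap. It was not called (-3.14 ± 0.57, edgeR adjusted p = 0.059, and 0.0035, 0.0068 and 0.28 without replicate 1, 2 and 3). Otx2 was not called either (-0.60 ± 0.21, adjusted p = 0.12). Tet2 and Tet3, which oxidize methylated cytosine, were raised, by 1.38 ± 0.26 and 0.70 ± 0.14, and neither was called without replicate 2. Tet2 also lost its call without replicate 1 (edgeR adjusted p = 0.057), and Tet3 without replicate 3 (edgeR adjusted p = 0.14).

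A few genes from lists of later lineages were called as well, where 4.71% of all tested genes were raised and 4.96% lowered. Of 9 neural genes, 2 were raised and 1, Nes, was lowered. The fitted values lay above 0 for 5 and below 0 for 4, with a median of 1.20 that was 0.30, 1.28 and 0.33 in pairs 1, 2 and 3 and -0.01 among members with a mean of at least 5 CPM. The 14 listed markers summed to 64.8 to 141 TPM in the controls and 48.9 to 114 TPM with CK666. Sox1, a factor of early neural cells, measured 21.5, 2.53 and 3.64 CPM in the controls and 46.2, 6.30 and 10.1 CPM with CK666, higher in each pair though the groups overlap (log2 change 1.28 ± 0.18, edgeR adjusted p = 0.0043). Ncam1, a neural adhesion molecule, rose by 1.30 ± 0.28 and was not called without replicate 2 or 3.

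In the trophoblast list, the transcription factors Tfap2c and Ascl2 were raised, 2 of 7 tested, by 1.03 ± 0.26 and 1.30 ± 0.31 on the log2 scale, and Elf5 and Prl3d1 were at or under 3 counts in all 6 libraries. Gata4, a factor of primitive endoderm, was the 1 raised of 7 endoderm genes (0.99 ± 0.27, edgeR adjusted p = 0.047), and Fgf8 the 1 lowered of 8 genes of primitive streak and mesoderm (-1.44 ± 0.36, adjusted p = 0.035). Without replicate 2 or 3, 0 genes of the trophoblast and endoderm lists were called, and Fgf8 was not called without replicate 1 or 3 (edgeR adjusted p = 0.096 and 0.23). So few calls in short lists do not show that cells of a lineage were present. Whether such cells had a part in the formative result was not tested.

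Of 18 immediate early and feedback genes of the ERK pathway, 0 were raised and 5 were lowered. The list's median was -0.03, -0.34 and -1.08 in pairs 1, 2 and 3, and 7, 3 and 1 members were lowered without replicate 1, 2 and 3 in turn. Egr1, which ERK induces through SRF and its partners, measured 7.09, 8.07 and 25.6 CPM in the controls and 0.72, 2.06 and 1.51 CPM with CK666 (log2 change -3.10 ± 0.40, edgeR adjusted p = 0.0045). Ier3, Junb, Jun and Ier2 fell by 1.85, 1.06, 0.64 and 0.62 on the log2 scale.

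Of 18 genes of the BMP and ID list, 4 were raised and 0 were lowered. Id1, an inhibitor of basic helix-loop-helix factors and a direct BMP target, rose from 15.1, 35.4 and 42.7 CPM to 62.2, 121 and 97.8 CPM (1.66 ± 0.16, edgeR adjusted p = 0.0015). Id2 rose by 1.90, Id4 by 1.46, and Smad6, which inhibits BMP signalling and is induced by it, by 1.53. In the Nodal list, the coreceptor Tdgf1, the antagonist Lefty2 and the ligand Gdf3 were lowered, 3 of 15, with 2 lowered without replicate 1, 2 and 3 in turn. Gdf3 lost its call in each of these fits (edgeR adjusted p = 0.053, 0.30 and 0.10). Tdgf1 measured 527, 358 and 439 CPM in the controls and 265, 152 and 167 CPM with CK666 (-1.21 ± 0.12, edgeR adjusted p = 0.0012). Of 16 YAP and TEAD genes, 3 were lowered, Ccn1, Ccn2 and Lats2, of which 0 were called without replicate 2 and 1 without replicate 3. Ccn1 and Ccn2 are also in the SRF list, and Lats2 had an adjusted p of 0.22 in edgeR once transcript length was offset.

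Of 21 MYC and G1 genes, 3 were raised and 6 were lowered, against 4.71% and 4.96% of all tested genes. Without replicate 2 the calls were 0 raised and 1 lowered, and without replicate 3 they were 1 raised and 0 lowered. Mycn measured 59.3, 92.2 and 88.8 CPM in the controls and 33.2, 18.7 and 25.7 CPM with CK666. The log2 change was -1.64 ± 0.28 (edgeR adjusted p = 0.026, and 0.15 without replicate 3). The G1 cyclins Ccnd1, Ccne1 and Ccne2 fell by 0.84, 0.83 and 1.43, and Mycl and the kinase gene Cdk2 by 0.56 and 0.41 on the log2 scale. Ccnd2 and the cell cycle inhibitors Cdkn1c and Cdkn2a rose by 0.58, 0.80 and 0.89. Of 22 mitosis genes 0 were called, and of 22 DNA replication genes 4 were lowered, with 5, 0 and 0 lowered without replicate 1, 2 and 3 in turn.

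Splicing factors were lowered in 7 of 23 members and raised in 1, with 9, 3 and 3 lowered without replicate 1, 2 and 3 in turn. Srsf3, an SR protein that promotes exon inclusion, measured 641, 567 and 568 CPM in the controls and 357, 263 and 300 CPM with CK666 (log2 change -0.96 ± 0.11, edgeR adjusted p = 0.0016). Srsf2 fell by 1.08, Srsf6 by 0.63, Srsf1 by 0.55 and Srsf5 by 0.43, with Esrp1 and Esrp2 the other lowered members. Mbnl2, a muscleblind-like factor, was the 1 raised.

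Transcript shares, each transcript's part of its gene's summed TPM, gave no call. Of 23334 transcripts tested in 7749 genes, limma on the arcsine square root of the share called 0, with 1530 at an unadjusted p under 0.05 and a smallest adjusted p of 0.749. edgeR's diffSpliceDGE on counts called 4, with 650 at an unadjusted p under 0.05. The shares varied between single libraries of a group by a median SD of 6.10 points in the controls and 5.89 points with CK666, and the group means differed by a median of 3.77 points in size. A difference of at least 20 points without overlap of the groups was seen for 260 transcripts (1.11% of those tested) in 214 genes. Of these genes 33 (15.4%) were called at gene level, as were 11.3% of all genes with a tested transcript, a difference that was not tested. These last counts are by gene symbol, of which 7746 had a tested transcript.

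The leading transcript of the gene, by mean share, differed between the groups for 659 of 7749 genes (8.5%). Between single libraries it differed for 11.7% to 17.5% of genes within a group, and for 16.0%, 13.1% and 11.8% between the groups in pairs 1, 2 and 3.

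The 12 transcripts with the smallest p, given as values that did not pass, mostly went between 0 and a large share. Zfp101-205, a short noncoding transcript of a zinc finger gene, was listed at 0 in the 3 controls and took 49.97%, 56.3% and 48.2% of its gene's TPM with CK666. The coding Zfp101-201 took 70.7%, 73.2% and 67.0% in the controls and 42.6%, 20.2% and 31.9% with CK666. A listed 0 can be an estimate that assigned the reads to other transcripts of the gene, and 71 transcripts were at 0 in 1 group and above 0 in every library of the other, 39 at 0 with CK666 and 32 at 0 in the controls.

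Os9-202 was the 1 of the 12 with reads in every library at sizeable shares. Os9 encodes a lectin that sorts misfolded glycoproteins in the endoplasmic reticulum, and both its leading forms are coding. Os9-202 made up 11.5%, 25.7% and 10.9% of the gene's TPM in the controls and 48.8%, 69.2% and 65.0% with CK666, with Os9-201 as the remainder. The difference was 45.0 ± 4.89 points (SE over 3 pairs, limma adjusted p = 0.749). Vrtn-202, a coding transcript of the vertebra number gene Vrtn, took 22.5%, 45.7% and 47.0% in the controls and at most 3.36% with CK666.

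**Figure D5:**
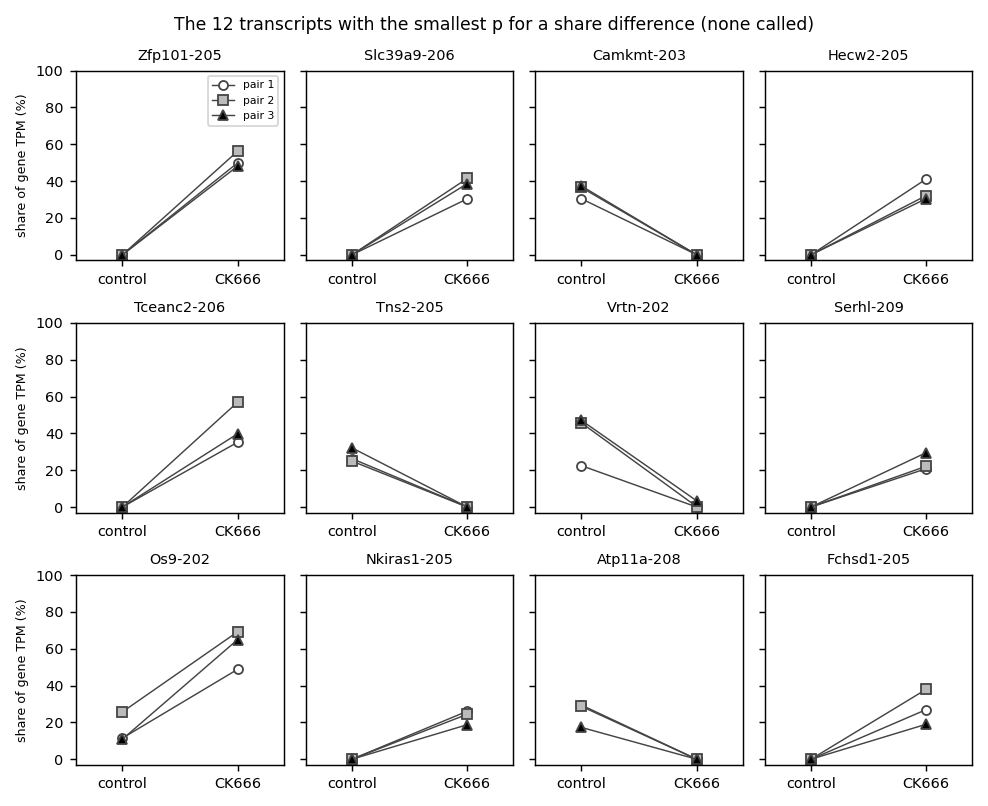
Share of the gene's TPM (percent, vertical axes) of the 12 transcripts with the smallest p in control and CK666 libraries; lines join replicate pairs. Most panels run to or from 0, Os9-202 is above 0 in all 6 libraries, and 0 of the 12 passed the threshold.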

How the data were processed

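RNA was sequenced as poly(A)-selected libraries, and the deposited tables give an estimated count and a TPM for each transcript, per the file headers. The submitters' processing notes name FastQC, cutadapt 1.8.1, kallisto and sleuth, and list GRCh38 beside mm10, without saying which build served which step. The transcript release is not given in the sources used here. Both values were summed per gene by Ensembl transcript ID in GENCODE M21, which held 116640 of 119414 transcripts (97.7%), giving 35896 genes. Counts without a gene (0.895% to 1.05% per library) were left out.

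Summed estimated counts were rounded and tested in edgeR 4.0.16 (R 4.3.3) with TMM scaling, filterByExpr, a robust quasi-likelihood fit and the replicate number as a block. Shares of transcripts with a mean of 5% to 95% in genes of at least 5 TPM were tested in limma 3.58.1 with the same block. Deviations from the group means correlated between same-numbered libraries (0.68, 0.55 and 0.42), and the design text calls the replicates paired. Between control and CK666 libraries of different numbers, they were 0.26 and 0.28 for replicates 2 and 3, and -0.55 to -0.46 where replicate 1 was involved. How far the same-number values reflect replicate 1 alone was not tested. The edgeR test combines the spread between these 3 pairs with variance shared across genes (2 residual and a median of 8.24 prior degrees of freedom). Its p-values therefore do not measure a gene's own spread alone. The ± of a log2 change is an SE derived from that test, not the spread of the 3 pair differences. Alternatives included DESeq2 1.42.0. The scripts were tested on simulated data. The tables hold no strand information, and genes sharing exons cannot be separated fully.

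The single genes named are the 15 raised and 15 lowered called protein-coding genes with the largest change, kept where the mean log2 CPM reached 3 and every pair moved the same way, and called list members. Members that were not called, and Slc16a3, were named with their values known, as were the libraries, lists and motifs, all chosen with earlier results of these data known.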

Additional observations from a re-analysis of the deposited data

How the results depend on the processing

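The count of 1367 genes was 0 without the replicate block, 300 with all 9 libraries in the fit, 2201 with no filter on low counts and 643 with an effective length offset, and ranged from 169 to 1930 when 1 replicate was left out. The cause was not tested. DESeq2 (1577), limma voom, both other scalings, the stricter filter and the fit that was not robust stayed within 1.5 times. Of 200 called named genes, 0 changed direction under the 13 alternatives, while 200 lost the call without the block, 134 with all 9 libraries, 143 without replicate 2, 128 without replicate 3, 72 with the length offset and 20 without replicate 1. Among genes that were not called, Pou5f1 ranged from -0.017 to 0.20 with 1 replicate left out, and Actr3 from -0.073 to 0.0039, with 0.11 under the length offset. For transcript shares the count of 0 became 1 without the replicate block and 4 with diffSpliceDGE, and stayed at 0 with each replicate left out. With 3 pairs and 2 residual degrees of freedom, a missed threshold does not show that a gene was level. The counts per list without single replicates, the length offset per list and the second window and motif form of the promoter search were added after seeing the data.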

Other observations

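Germline genes, many of which are silenced by promoter DNA methylation, included 4 raised and 0 lowered of 13 tested. Mael, a piRNA pathway protein, rose from 29.5, 24.1 and 11.8 CPM to 48.2, 56.9 and 26.4 CPM, higher in 3 of 3 pairs (log2 change 1.03 ± 0.15, edgeR adjusted p = 0.0046). Ddx4, Mov10l1 and Stk31 were the others, and 4, 0 and 1 of the list were raised without replicate 1, 2 and 3 in turn. Of 5 genes of the 2-cell-like state tested, all low, 2 were lowered, with 1, 0 and 0 lowered without replicate 1, 2 and 3 in turn: Zscan4f and Zscan4a fell by 2.00 and 2.03 on the log2 scale, from 2.58 to 4.64 CPM and 0.88 to 1.95 CPM in the controls, and these near-identical copies share reads. Lysosome and autophagy genes were raised in 3 of 20 and lowered in 1, with 13, 0 and 0 raised without replicate 1, 2 and 3 in turn, against 6.69%, 0.44% and 0.798% of all genes tested in those fits. Their median was -0.12, 0.62 and 0.52 in pairs 1, 2 and 3.

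Genes on chromosomes 6 and 8 had medians above 0 in pairs 2 and 3 but not in pair 1. Over all chromosomes, 9.67% of tested genes were called and 48.7% of those were raised. On chromosome 6 the median log2 difference of 683 tested genes was -0.03, 0.15 and 0.09 in pairs 1, 2 and 3, and 79 genes (11.6%) were called, 53 of them raised. On chromosome 8 the median of 753 tested genes was -0.03, 0.11 and 0.06, and 100 genes (13.3%) were called, 64 of them raised. The difference from other chromosomes was not tested. The 13 mitochondrial genes had medians of 0.71, 0.31 and -0.69 in the 3 pairs, and edgeR called 0 of them.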
